A study of Mus musculus with 2 samples.

Results

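The genes of the ATP-binding cassette (ABC) family that lie outside drug efflux were described in accessible chromatin of the mouse kidney. Members were the protein-coding genes of the GENCODE M21 annotation whose symbol is Abc followed by a letter from a to g and a digit, without the drug efflux genes Abcb1a, Abcb1b, Abcc2, Abcc4 and Abcg2. This gave 45 of 21938 protein-coding genes, in 7 subfamilies: 16 ABCA, 8 ABCB, 8 ABCC, 4 ABCD, 1 ABCE, 3 ABCF and 5 ABCG genes. DNase-seq, which maps accessible DNA from the places where DNase I cleaves it in isolated nuclei, was applied to whole kidney of male B6CASTF1/J mice aged 25 days, which are first-generation hybrids between C57BL/6J and CAST/EiJ. The 2 libraries, replicate 1 and replicate 2, came from differently numbered animals and biosamples that share a donor code, and formed 1 group with no treatment and no control group. Values below are therefore given for both libraries, replicate 1 first, and comparisons are between genes within them.

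ABC proteins bind and hydrolyse ATP in a conserved cassette, and most of them use this to move lipids, sterols, bile salts, peptides, haem or organic anions across membranes. ABCA and ABCG proteins are known mainly for lipid and sterol export, ABCD proteins for the import of fatty acids into peroxisomes, and ABCC proteins for the export of conjugated anions, while ABCC8 and ABCC9 are regulatory subunits of potassium channels. ABCE and ABCF proteins have the ATPase cassettes but no membrane-spanning domain, and act on ribosomes. In the kidney, tubule cells use members of the family to move lipids and anionic metabolites, and many other members are known from liver, skin, lung, retina or testis.

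The longer, looser peak list of each library held 125393 and 177001 peaks, covering 22.1 and 31.1 Mb, and the footprint lists held 237471 and 493495 footprints, short stretches inside accessible DNA that were cut less than their surroundings. Replicate 2 thus had more sites of both kinds. The height of a peak is its deposited signal. Low heights come in equal steps, whose size differs 1.72 times between the libraries, so heights of the libraries can be compared only as far as that scaling allows, and the absolute depth is unknown. Promoter peaks were found in both libraries for 6 of 6 proximal tubule markers and 3 of 3 markers of the thick ascending limb. They were also found for 3 of 3 of the distal convoluted tubule and 3 of 3 endothelial markers. For principal cells, podocytes, stroma and immune cells it was 2 of 3 each. For erythroid cells, keratinocytes, pancreatic islets and lung type 2 cells it was 1 of 3 each. For intercalated cells, liver and neurons it was 0 of 3 each. Over all protein-coding genes the share was 65.3%. In bulk tissue, fewer cells of a type and less accessibility per cell cannot be told apart.

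A promoter peak was a peak that overlapped 500 bp on either side of any transcription start site (TSS) of a gene, and where several did, the highest was taken. By this measure 37 of the 45 members (82.2%) had a promoter peak in both libraries, against 65.3% of all protein-coding genes. At the 5' end of the gene alone the count was 36 (80.0%), against 61.6% of all genes, because Abca4, the lipid transporter of photoreceptor discs, had its peak at an internal TSS. Abcc8, the sulfonylurea receptor of pancreatic islets, had a peak in replicate 1 only, and 3.62% of all genes had one in 1 library only. The other 7 members, Abca12, Abca16, Abcb5, Abcb11, Abcc12, Abcg3 and Abcg5, had none in either library. In both libraries 35 members (77.8%) had a footprint no more than 500 bp from a TSS, against 62.8% of all genes. In the stricter peak list 31 members (68.9%) had a promoter peak in both libraries, against 62.0% of all genes, and the 6 that dropped out were Abca4, Abca6, Abca8a, Abcc9, Abcg4 and Abcg8.

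**Figure D1:**
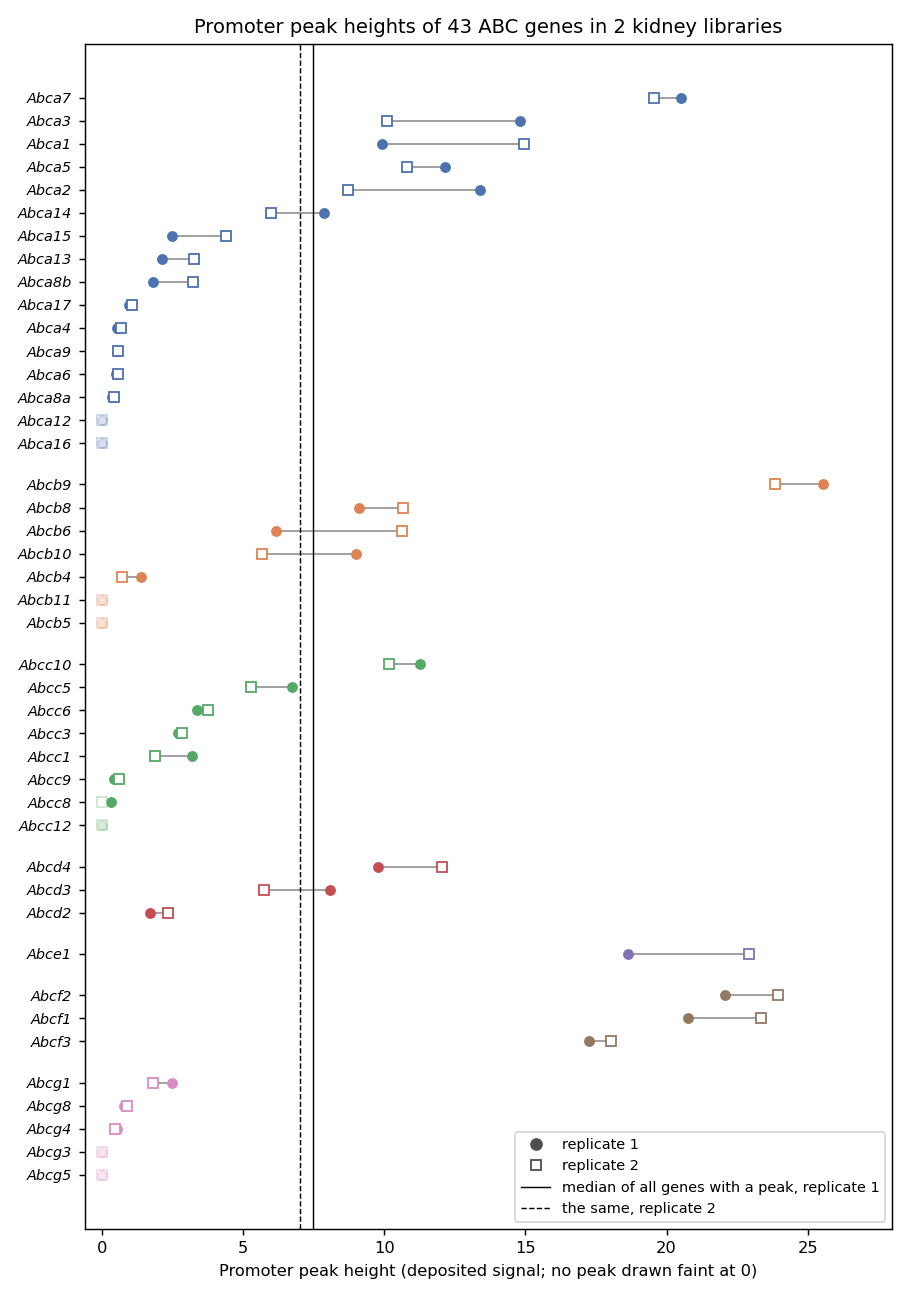
Promoter peak height of 43 of the 45 genes (x axis, deposited signal) by gene and subfamily (y axis), with filled circles for replicate 1 and open squares for replicate 2. Faint symbols at 0 mark libraries without a promoter peak, and the vertical lines mark the medians of all genes with a peak in both libraries, 7.49 and 7.01; the ABCE and ABCF genes lie to the right of both lines and the ABCG genes to the left.

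Heights differed far more between members than between libraries. Over the 37 members with a promoter peak in both libraries, heights ran from 0.350 to 25.5 in replicate 1, with a median of 6.55, and from 0.427 to 23.9 in replicate 2, with a median of 5.67. The medians over all genes with a promoter peak in both libraries were 7.49 and 7.01. The log2 ratio of replicate 2 to replicate 1 had a median of 0.12 over the 37 members and -0.05 over all 14329 such genes, and ran from -0.99 for Abcb4 to 0.82 for Abca15. The plot of promoter heights by gene shows both libraries side by side. Heights in the upper 10% of genes with a promoter peak in both libraries were reached by 5 members (11.1%), Abca7, Abcb9, Abce1, Abcf1 and Abcf2, against 4.33% of all protein-coding genes.

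The soluble ATPases of the ribosome, the ABCE and ABCF genes, had the highest median promoters of the subfamilies. All 4 of them had a promoter peak in both libraries, against 65.3% of all genes, and their medians were 19.7 and 23.1. Abce1, which splits ribosomes after termination so that they can be used again, had heights of 18.6 and 22.9, higher than 91.3% and 95.8% of open promoters. Its peak also lies within 1 kb of the TSS of Anapc10, a subunit of the anaphase-promoting complex, so the height belongs to both genes. Abcf1, a partner of initiation factor eIF2, had heights of 20.8 and 23.3. For Abcf2 the heights were 22.1 and 23.9, and for Abcf3, an effector of the Gcn2 stress pathway, 17.2 and 18.0. The 4 genes did not overlap in either library with any ABCC, ABCD or ABCG gene. Abca7 and Abcb9, however, were higher than Abcf3, the lowest of the 4, in both libraries. Abcf3 itself was higher than 88.5% and 89.8% of open promoters. All 4 promoters lay in the CpG-rich part of the genome's promoters, with ratios of observed to expected CpG from 0.748 to 0.910 against a median of 0.552 over all genes. Of all genes at or above that median, 94.2% had a promoter peak in both libraries. Of the 7 translation partners matched in the annotation, all 7 had a promoter peak in both libraries, against 65.3% of all genes. Their medians were 14.9 and 15.5. The highest were Etf1, the release factor eRF1, at 19.97 and 18.6, and Eif2ak4, the Gcn2 kinase, at 17.9 and 26.8.

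The promoter peaks of Abce1, Abcf2 and Abcf3 are shown as the sequence that these high peaks cover, together with that of Abcb9, the highest member by the mean of both libraries. Each is the peak of replicate 1 in GRCm38.p6, on which mm10 is based, on the strand of the gene and from 5' to 3', and capitals mark bases inside footprints of both libraries. The peaks are chr5:124095801-124096020 on the minus strand for Abcb9, chr5:24577361-24577620 on the minus strand for Abcf2, chr16:20548401-20548660 on the plus strand for Abcf3 and chr8:79711641-79711840 on the minus strand for Abce1.
Abcb9: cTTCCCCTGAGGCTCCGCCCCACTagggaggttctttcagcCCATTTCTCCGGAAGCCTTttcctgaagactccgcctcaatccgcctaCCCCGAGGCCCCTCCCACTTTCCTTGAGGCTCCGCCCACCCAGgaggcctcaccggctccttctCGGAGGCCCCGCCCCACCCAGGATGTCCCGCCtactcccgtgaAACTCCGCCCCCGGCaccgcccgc
Abcf2: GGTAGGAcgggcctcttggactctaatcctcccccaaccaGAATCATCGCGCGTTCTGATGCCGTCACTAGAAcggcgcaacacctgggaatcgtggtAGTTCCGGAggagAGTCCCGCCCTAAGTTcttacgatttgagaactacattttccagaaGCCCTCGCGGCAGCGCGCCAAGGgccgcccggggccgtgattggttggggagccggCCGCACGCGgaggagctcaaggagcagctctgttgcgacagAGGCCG
Abcf3: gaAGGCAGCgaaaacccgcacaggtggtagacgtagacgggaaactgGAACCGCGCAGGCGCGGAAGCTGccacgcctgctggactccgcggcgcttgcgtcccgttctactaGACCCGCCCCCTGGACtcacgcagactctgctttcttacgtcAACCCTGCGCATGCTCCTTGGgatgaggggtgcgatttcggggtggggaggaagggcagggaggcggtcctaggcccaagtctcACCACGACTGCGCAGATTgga
Abce1: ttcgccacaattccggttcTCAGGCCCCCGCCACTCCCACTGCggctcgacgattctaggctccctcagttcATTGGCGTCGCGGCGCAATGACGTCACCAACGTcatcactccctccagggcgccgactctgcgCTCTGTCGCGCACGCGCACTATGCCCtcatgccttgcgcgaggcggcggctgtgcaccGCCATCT
In the peak of Abcb9, 132 of 220 bases lay in footprints of both libraries. This peak holds 5 GC boxes (GGGCGG, the core bound by SP1-type factors), of which 4 lay wholly in capitals, and 1 ETS core (CCGGAA), also in capitals. In the peak of Abce1 the capitals cover a cyclic AMP response element (TGACGTCA), a CCAAT box and 1 match with 1 mismatch to the NRF1 site (GCGCATGCGC, bound by nuclear respiratory factor 1). In that of Abcf3 they cover a GC box and 2 such NRF1 matches, and in that of Abcf2 a GC box and an ETS core. These matches describe letters in the sequence and were not tested as binding sites.

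Among ABCB genes, grouped here by the membrane that they are known to serve, the lysosomal and mitochondrial ones had higher promoters than those of the plasma membrane. Abcb9, a lysosomal peptide transporter, had heights of 25.5 and 23.8, above 98.3% and 96.4% of open promoters. It was the highest member in replicate 1 and second to Abcf2, at 23.9, in replicate 2. Abcb6, Abcb8 and Abcb10, which are mitochondrial, had intermediate promoters, from 6.19 to 9.11 in replicate 1 and from 5.67 to 10.7 in replicate 2, on either side of the medians of all genes. Abcb6, a porphyrin transporter, had heights of 6.19 and 10.6. Abcb10, a mitochondrial inner membrane protein of haem synthesis, had 9.02 and 5.67. Abcb8 had 9.11 and 10.7 in a peak about 1 kb inside the gene, no more than 500 bp from an internal TSS, and 3.78 and 5.81 at its 5' end. By its internal peak Abcb8 was the highest of the 3 in both libraries, but only narrowly, and by its 5' end it was the lowest in replicate 1. Abcb6 and Abcb10 changed order between the libraries. Among the 3 genes of the plasma membrane, Abcb4, the phosphatidylcholine floppase of bile canaliculi, had a low promoter at 1.40 and 0.705, while Abcb11, the bile salt export pump, and Abcb5 had none.

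The sequence of the Abcb10 promoter peak of replicate 1 is shown because it holds the exact NRF1 site, a motif known from promoters of nuclear genes for mitochondrial proteins. It lies at chr8:123982901-123983200 on the minus strand, and capitals mark footprint bases as above.
Abcb10: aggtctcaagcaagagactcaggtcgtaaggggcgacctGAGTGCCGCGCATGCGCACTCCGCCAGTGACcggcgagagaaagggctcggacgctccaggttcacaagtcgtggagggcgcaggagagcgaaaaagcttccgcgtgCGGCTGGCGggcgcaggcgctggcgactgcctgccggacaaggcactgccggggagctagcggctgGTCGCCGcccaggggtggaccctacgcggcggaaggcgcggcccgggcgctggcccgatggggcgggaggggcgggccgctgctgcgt
The exact site GCGCATGCGC begins at base 47 of this sequence, and 10 of its 10 bases lay in footprints of both libraries. In the 300 bp from 250 bp before to 50 bp after the 5' end, a match with up to 1 mismatch was found in 4 of the 45 members, Abcb10, Abcc5, Abcd3 and Abcf3 (8.89%), and in 8.26% of all promoters. The matches of all 4 members overlapped a footprint in each library, as did 80.8% and 82.9% of those of all genes. Abcb6 and Abcb8 had no such match in this window.
For the haem and iron-sulfur pathway, 11 of 13 listed genes had a promoter peak in both libraries, against 65.3% of all genes. Their medians were 11.6 and 7.89. Fech, which inserts iron into haem, was the highest in replicate 1, at 17.5 and 10.6, and Glrx5 was the highest in replicate 2, at 15.98 and 19.8. The erythroid genes Alas2 and Slc25a37 had none.

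ABCA genes spanned nearly the whole range of heights. Their 14 promoters with a peak in both libraries had medians of 2.32 and 3.83, from 0.350 to 20.5 in replicate 1 and from 0.427 to 19.6 in replicate 2. Abca7, a phospholipid transporter of phagocytic cells and neurons, was the highest, at 20.5 and 19.6. Abca3, the surfactant lipid transporter of lung lamellar bodies, had heights of 14.8 and 10.1. Abca1, which loads cholesterol and phospholipid onto apolipoprotein A-I, had 9.93 and 14.9. Abca5, a lysosomal lipid transporter, had 12.2 and 10.8, and Abca2, known from myelinating cells, had 13.4 and 8.72. Of these 5, Abca7 was above the other 4 in both libraries, and the other 4 changed order between the libraries.

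The Abca7 and Abca1 promoter peaks are shown as the highest of the ABCA genes and as that of the main cholesterol exporter. They lie at chr10:79996341-79996540 on the plus strand and chr4:53159901-53160100 on the minus strand, with capitals as above.
Abca7: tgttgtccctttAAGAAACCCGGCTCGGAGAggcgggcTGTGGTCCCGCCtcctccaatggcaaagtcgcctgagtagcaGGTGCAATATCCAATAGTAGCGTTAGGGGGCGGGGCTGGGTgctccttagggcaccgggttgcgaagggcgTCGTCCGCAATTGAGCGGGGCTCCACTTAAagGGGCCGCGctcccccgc
Abca1: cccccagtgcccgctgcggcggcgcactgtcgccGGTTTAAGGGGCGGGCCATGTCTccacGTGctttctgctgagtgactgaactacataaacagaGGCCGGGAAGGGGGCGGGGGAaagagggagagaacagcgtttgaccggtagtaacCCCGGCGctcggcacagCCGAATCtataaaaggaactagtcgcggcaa
In the Abca7 peak, 110 of 200 bases lay in footprints of both libraries, against 61 of 200 in that of Abca1. The capitals of Abca7 cover a CCAAT box and a GC box. The capitals of Abca1 cover 2 GC boxes, while of its E-box (CACGTG) 3 of 6 bases and of its TATA box (TATAAA) none lay in capitals. The direct repeat that liver X receptors bind (DR4, a pair of AGGTCA units with 4 bases between them, with up to 2 mismatches) was not found in the 300 bp window of Abca1. It was found in 1 member, Abcd2 (2.22%), and in 2.86% of all promoters.
Of the 15 listed genes of cholesterol efflux and its regulation, 13 had a promoter peak in both libraries, against 65.3% of all genes. Their medians were 12.8 and 13.6. Npc1, the lysosomal cholesterol exporter, had 26.1 and 26.9, and Mylip, which degrades the LDL receptor, had 21.8 and 21.3. Apoa1 and Lcat, genes of lipoprotein particles in plasma, had none.

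In the ABCA cluster on chromosome 11, low promoters stood beside the high one of Abca5. There Abca6, Abca8a, Abca8b and Abca9 had heights from 0.350 to 1.83 in replicate 1 and from 0.427 to 3.22 in replicate 2, and Abca5 at its end had 12.2 and 10.8. Abca8b, at 1.83 and 3.22, was the highest of these 4 neighbours in both libraries. Their CpG ratios ran from 0.170 to 0.471, against 0.980 for Abca5. Of the genes known from testis, Abca14 had heights of 7.85 and 5.99, Abca15 of 2.49 and 4.39, and Abca17 of 0.983 and 1.06, while Abca16 had no promoter peak. The 5' end of Abca17 lies beside that of Abca3 on the other strand, and with 1000 bp on either side of a TSS its mean height became 12.4, through the peak of Abca3. Abca13, the longest member gene at 492 kb, had 2.15 and 3.27. With 250 bp on either side of a TSS the mean heights of Abca13 and Abca15 fell from 2.71 to 0.537 and from 3.44 to 0.558. Abca12, the lipid transporter of keratinocyte lamellar granules, had none. Of the 9 listed genes of surfactant, keratinocytes and retina, 2 had a promoter peak in both libraries, against 65.3% of all genes. These were Krt10 at 9.91 and 8.71, and Napsa at 1.61 and 2.09. Sftpb, Sftpc, Lor and Flg of this list had none in either library.

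ABCC promoters were below the medians of all genes except that of Abcc10. Their 6 promoters open in both libraries had medians of 3.28 and 3.30. Abcc10, a broad exporter of anionic compounds, had 11.3 and 10.2. Abcc5, which exports cyclic nucleotides and other anions, had 6.73 and 5.28. Abcc6, whose loss causes calcification of elastic tissue, had 3.38 and 3.75. Abcc1 and Abcc3, exporters of conjugates on the basolateral side of epithelia, had 3.18 and 1.89, and 2.69 and 2.85. Abcc12 had none. The sulfonylurea receptor genes were at the lower edge: Abcc9, the subunit of vascular and muscle channels, had 0.436 and 0.616, and Abcc8 had 0.333 in replicate 1 and no peak in replicate 2. Of the pore subunits that these receptors regulate, Kcnj8, the partner of Abcc9, had a promoter peak at 3.50 and 1.80, and Kcnj11, the partner of Abcc8, had none.

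ABCD genes all had a promoter peak in both libraries, against 65.3% of all genes, and their medians were 8.56 and 8.22. Of the 4 ABCD genes, 3 lay at or above the median CpG ratio of all genes, where 94.2% of all genes had such a peak. Abcd4, a lysosomal protein of cobalamin transport, had 9.79 and 12.0. Abcd3, the peroxisomal importer of branched-chain and bile acid precursors, had 8.07 and 5.76. Abcd2, a peroxisomal importer of fatty acids, was lower than both in each library, at 1.73 and 2.34. All 11 listed genes of peroxisomal import and oxidation had a promoter peak in both libraries, against 65.3% of all genes. Their medians were 11.4 and 12.4. The highest were Acsl1, a long-chain acyl-CoA synthetase, at 22.5 and 27.7, and Pex5, the import receptor, at 13.2 and 21.7.

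Of the 5 ABCG genes, 3 had a promoter peak in both libraries (60.0%), against 65.3% of all genes. Their medians of 0.803 and 0.899 were the lowest of any subfamily in both libraries. Abcg1, which exports cholesterol to high-density lipoprotein, was the highest at 2.50 and 1.83. Abcg8, which with Abcg5 forms the sterol exporter of liver and intestine, had 0.803 and 0.899, and Abcg5, which lies next to it on the other strand, had none. Abcg4, known from brain, had 0.556 and 0.472, in peaks at different positions. Abcg3 had no peak, but 1 and 20 bases near a TSS were listed at a false discovery rate below 0.05, which held for 0.440% of all genes without a promoter peak in either library. In the stricter peak list 1 of the 5, Abcg1, had a promoter peak in both libraries. With the TSSs of the comprehensive annotation 4 of the 5 had one in both libraries. Of 5 listed partners in bile formation, Nr1h4, the bile acid receptor, had a promoter peak at 3.39 and 6.88 and Atp8b1 at 5.14 and 3.36, while Slc10a1 and Cyp7a1 had none.

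The 5 drug efflux genes left out by the rule all had a promoter peak in both libraries, against 65.3% of all genes. Their medians were 1.64 and 2.28. Among ABC proteins that carry no Abc symbol, Tap1, a peptide transporter of antigen presentation, had heights of 22.4 and 27.8, Cftr, the chloride channel, had 0.949 and 0.700, and Tap2 had none.

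**Figure D2:**
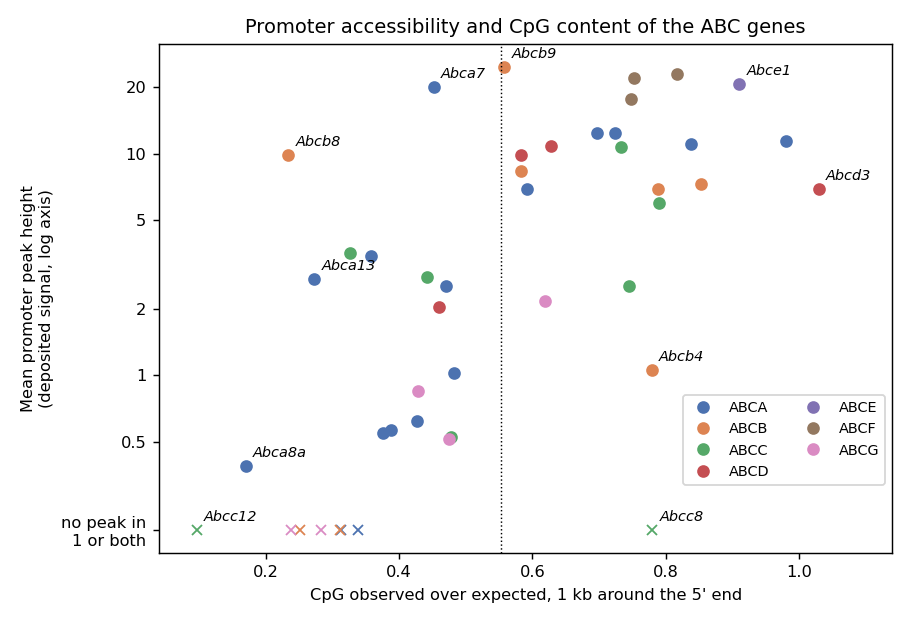
Mean promoter peak height of the 2 libraries (y axis, deposited signal, log axis) against the ratio of observed to expected CpG in 1 kb around the 5' end (x axis), 1 point for each of the 45 genes, coloured by subfamily. Crosses mark the 8 genes without a promoter peak in both libraries, and the dotted line marks the median CpG ratio of all genes, 0.552; 7 of the 8 crosses lie to its left.

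Of the 8 members without a promoter peak in both libraries, 7 (87.5%) lay below the median CpG ratio of all genes, a share near the 91.7% of all such genes. Of the 22 members at or above the median CpG ratio of all genes, 21 (95.5%) had a promoter peak in both libraries, against 94.2% of all such genes, and the exception was Abcc8. With the TSSs of the comprehensive annotation Abcc8 had a promoter peak in both libraries too, and the ABCC count rose from 6 to 7. Of the 23 members below the median, 16 (69.6%) had one, against 36.4% of all such genes and 41.9% when the genes of olfactory, vomeronasal and trace amine receptors (Olfr, Vmn and Taar symbols) are left out. These 16 peaks were mostly low, with medians of 1.35 and 1.70, against 2.74 and 2.91 over all open promoters below the median CpG ratio. In the stricter peak list 10 of the 23 (43.5%) remained, against 32.1% of all such genes, since all 6 members that this list drops lie below the median ratio. Abca7 and Abcb8 stood apart from the other low-CpG members, as the plot of height against CpG shows. Abca7 had a ratio of 0.452 and heights of 20.5 and 19.6, and Abcb8 had a ratio of 0.234 at its 5' end, about 1 kb from the peak that gave its height. Among members above the median ratio with a peak in both libraries, Abcb4 and Abcg1 had the lowest.

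In the 300 bp window at the 5' end, other motifs were also searched on both strands, each with its share of all 21938 promoters. GC boxes were found in 19 members (42.2%), against 43.0%, and CCAAT boxes in 16 (35.6%), against 39.0%. Of the 37 members with a promoter peak in both libraries, 17 had a GC box, against 59.1% of such promoters. For CCAAT boxes it was 13 of 37, against 38.1%. A GC box overlapped a footprint in 15 and 14 of the 19, against 60.2% and 72.3% of all genes with a match. A CCAAT box did in 2 and 2 of the 16, against 21.7% and 26.9%. ETS cores were found in 14 members (31.1%), against 17.5% of all promoters and 24.3% of promoters open in both libraries, and 12 of the 14 had a promoter peak in both libraries. E-boxes were found in 7 members (15.6%), against 7.75%: Abca1, Abca15, Abca8a, Abca8b, Abcc8, Abcc10 and Abcf1. Of the 37 open members 6 had an E-box, against 9.76% of promoters open in both libraries. An ETS core overlapped a footprint in 5 and 6 of the 14, against 42.0% and 53.8% of all genes with a match. An E-box did in 1 and 4 of the 7, against 33.7% and 45.4%. Motifs of the nuclear factors of tubule and liver cells were searched too. The HNF4 site (CAAAGTCCA, up to 1 mismatch) was found in 5 members (11.1%), against 8.22%, and the HNF1 site (up to 2 mismatches) in none, against 1.23%. With 45 members, 1 gene is worth 2.22%, and none of these shares was tested.

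The locus of a gene was taken as its body with 10 kb added at both ends. The member loci held 238 and 332 different peaks, with a median of 0.0719 peaks per kb (mean of both libraries) against 0.102 over all genes. Member loci were also longer, with a median of 82.7 kb against 37.4 kb. Footprints were likewise sparser, at a median of 0.181 per kb against 0.270. By subfamily, the median peak density was 0.155 per kb for ABCG, 0.0955 for ABCD, 0.0839 for ABCB, 0.0778 for ABCF, 0.0619 for ABCA, 0.0602 for ABCC and 0.0414 for ABCE. By this mean the ABCG loci were the densest, but in replicate 1 the ABCF median (0.0934) was above that of ABCG (0.0908), and in replicate 2 it was below (0.0623 and 0.156). The ABCE and ABCF loci had few peaks beside their high promoters: Abce1 had 2 and 2 peaks, Abcf3 2 and 2, Abcf2 3 and 2 and Abcf1 5 and 4. The order also depends on the settings: ABCF came to 1.58 times the density of all genes with no flank and 2.29 times with 50 kb on each side, above ABCG at 1.24 and 1.11 times.

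**Figure D3:**
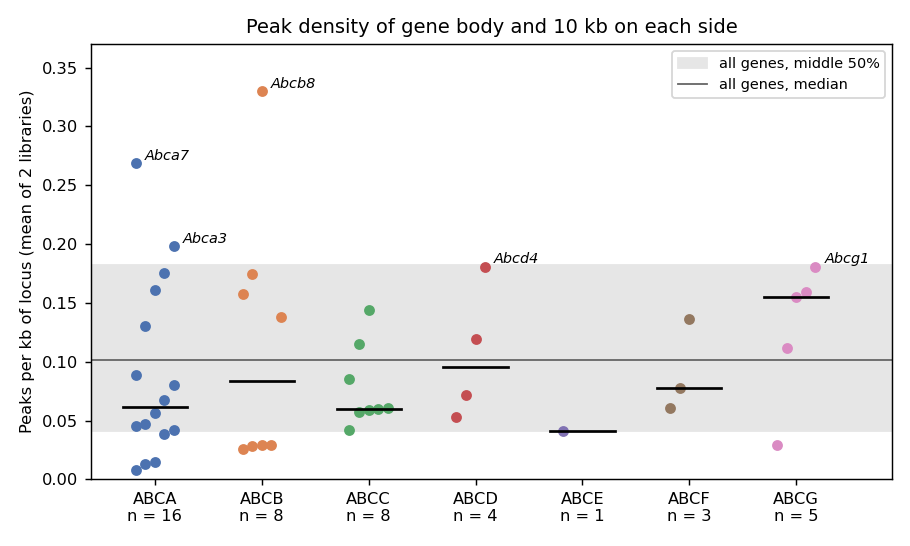
Peaks per kb of locus, the mean of both libraries (y axis), for each gene (points) by subfamily (x axis), with the subfamily median as a black bar. The grey line and band mark the median of all genes, 0.102, and their middle 50%; Abcb8, Abca7 and Abca3 lie above the band.

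The 5 densest loci were those of Abcb8 (0.330 peaks per kb), Abca7 (0.269), Abca3 (0.198), Abcd4 (0.181) and Abcg1 (0.181). Abcb8 had 12 peaks and 28 footprints in replicate 1 and 12 and 45 in replicate 2. Its locus also takes in Asic3, Atg9b, Cdk5 and Nos3, and 4 of its peaks in replicate 1 lay at TSSs of other genes. Abca7 had 9 and 12 peaks with 22 and 33 footprints, beside Arhgap45 and Cnn2. Abca3 had 12 and 19 peaks with 22 and 66 footprints, and shared 6 and 8 of the peaks with the locus of Abca17. Abcd4 had 4 and 9 peaks with 9 and 22 footprints. Abcg1 had 8 and 21 peaks with 18 and 59 footprints, the widest gap between the libraries among these 5. Of the other neighbouring pairs, Abcg5 and Abcg8 shared 2 and 5 peaks and Abca14 and Abca15 shared 3 and 4, while Abca5 and Abca6, and Abca15 and Abca16, shared none. Peaks shared by neighbours are counted for both genes.

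Of the 238 locus peaks of replicate 1, 210 overlapped a peak of replicate 2 by at least 1 bp (88.2%, 95% exact binomial interval 83.4 to 92.0, counting error only), against 87.6% of all peaks of that library. By place, 43.7% and 31.9% of the locus peaks lay within 1 kb of a TSS, against 26.1% and 22.0% of all peaks, and 42.0% and 51.5% lay in introns, against 39.2% and 42.5%. A locus is built around a gene and its TSSs, so its share of peaks between genes, 5.88% and 7.53%, is low by construction. For the same reason its shares near TSSs and in introns tend to be high. These shares were set beside all peaks, and not beside the loci of all genes. A footprint lay in 76.9% and 87.7% of the locus peaks, against 73.3% and 86.7% of all peaks.

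At Abca4 the high accessible sites lay inside the gene. No peak lay within 500 bp of its 5' end in either library, the nearest lying 2.05 and 2.01 kb away, yet its locus held 23 and 27 peaks, more than that of any other member in both libraries. Of these, 20 and 24 lay inside the gene and more than 1 kb from every TSS, more than in 98.4% and 97.5% of all genes. Among the 1494 genes of 100 to 200 kb, a length class chosen after its values were seen, the median was 6 and 9 such peaks, and 95.2% and 89.3% of them had fewer than Abca4. The highest lay in an intron 77.8 kb from the 5' end, at 15.1 and 14.6, and the next in another intron 60.2 kb from it, at 9.72 and 14.1. By the mean height of both libraries these were the 2 highest distal peaks that the libraries share at any member locus. The internal TSS that gave Abca4 its promoter peak, 87.5 and 87.4 kb from the 5' end, had heights of only 0.538 and 0.695. In the comprehensive annotation a further transcript starts 447 bp from the highest of these peaks, and with its TSS the mean promoter height of Abca4 became 14.8. Other distal peaks of the gene that the libraries share lay 85, 97, 194 and 351 bp from a TSS of that annotation. The retina genes Rdh8 and Rpe65 had no promoter peak.

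**Figure D4:**
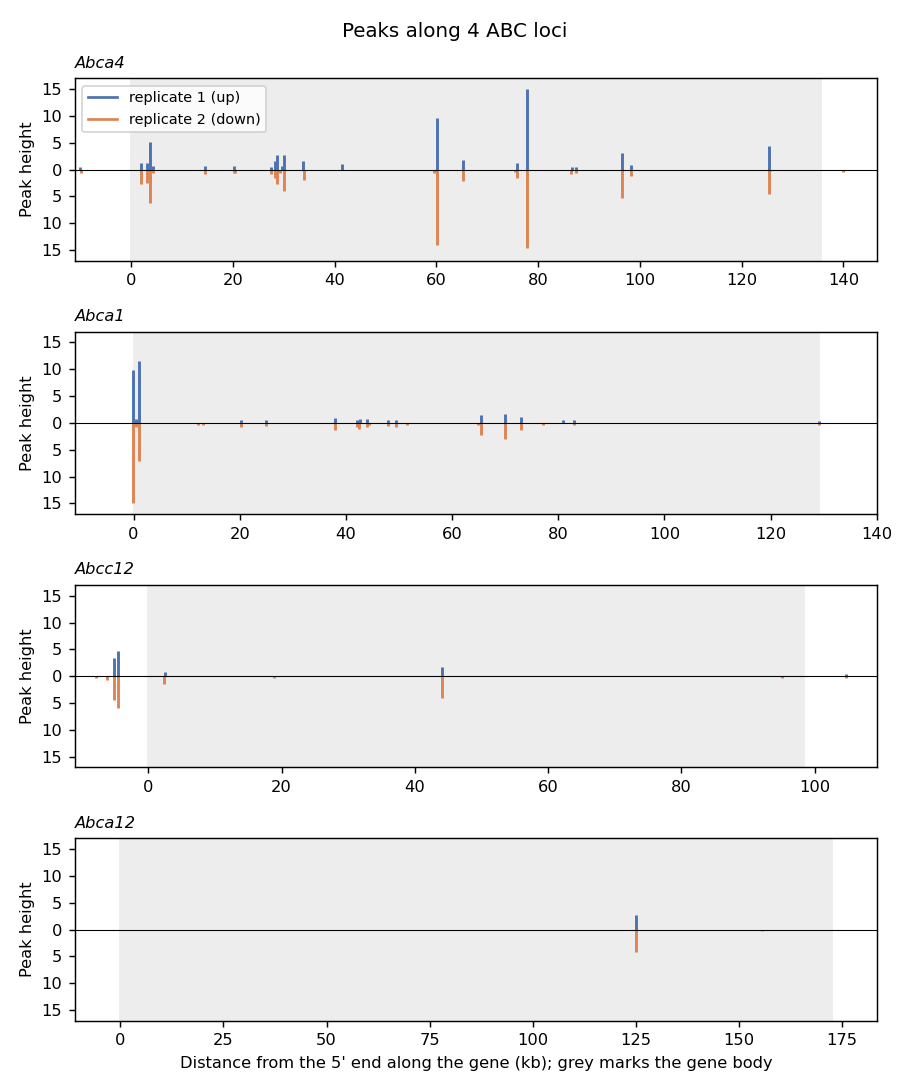
Peaks along 4 loci by distance from the 5' end (x axis, kb) with their height (y axis, deposited signal), replicate 1 drawn upwards and replicate 2 downwards, and the gene body in grey. Abca4 has its highest peaks at 60.2 and 77.8 kb and none at 0 kb, Abca1 has them at its 5' end, and Abcc12 and Abca12 have none at 0 kb.

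The 2 highest of the Abca4 peaks and the peak with a CTCF core near its 3' end are shown, as the strongest accessible sites of a gene whose 5' end has none. They lie in introns on the plus strand, at chr3:122122081-122122320 (site 1), chr3:122104561-122104720 (site 2) and chr3:122169681-122169860 (site 3), with capitals as above.
Abca4 site 1: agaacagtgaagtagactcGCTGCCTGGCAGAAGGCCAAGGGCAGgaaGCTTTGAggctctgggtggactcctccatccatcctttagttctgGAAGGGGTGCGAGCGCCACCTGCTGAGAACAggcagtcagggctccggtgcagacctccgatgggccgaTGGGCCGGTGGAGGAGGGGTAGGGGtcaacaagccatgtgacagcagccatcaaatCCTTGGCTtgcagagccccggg
Abca4 site 2: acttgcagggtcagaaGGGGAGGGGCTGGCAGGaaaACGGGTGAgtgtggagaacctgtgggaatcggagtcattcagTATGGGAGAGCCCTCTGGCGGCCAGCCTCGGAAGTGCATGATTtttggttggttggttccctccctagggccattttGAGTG
Abca4 site 3: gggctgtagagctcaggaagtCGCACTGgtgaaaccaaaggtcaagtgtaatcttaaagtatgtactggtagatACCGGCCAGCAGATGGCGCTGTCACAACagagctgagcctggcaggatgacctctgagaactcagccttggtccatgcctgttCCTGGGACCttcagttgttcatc
In site 1, 97 of 240 bases lay in footprints of both libraries, in site 2 it was 73 of 160 and in site 3 it was 44 of 180. Site 3 had heights of 4.49 and 4.48 and holds the core letters bound by the insulator protein CTCF (CCANNAGNNGGC, no mismatch, on either strand), at base 80, wholly inside a footprint of both libraries. Sites 1 and 2 hold no exact match to it. Each of them does hold a match with 1 mismatch on the minus strand, wholly in capitals. Matches with a mismatch were not counted in other peaks, so how common they are is not known here. In the comprehensive annotation a TSS lies 447 bp from site 1 and another 194 bp from site 3.

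Abca1 was second among members by distal peaks inside the gene, with 14 and 19. Its highest distal peak lay in an intron, 1.08 kb from the nearest TSS, at chr4:53158721-53158900, with heights of 11.6 and 7.14. In replicate 1 this was above the promoter peak itself and in replicate 2 below it. The other 2 of the 5 shared distal peaks highest by that mean lay between genes. The peak in the locus of Abca7, at chr10:79987121-79987300, had 7.51 and 7.06. The peak in that of Abca5, at chr11:110268621-110268760, had 7.96 and 6.14. Their nearest TSSs, 1.37 and 16.9 kb away, belong to other genes.

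The 7 members without a promoter peak still had between 1 and 9 locus peaks in a library. Abcc12 had 5 and 9, Abcg5 3 and 7, Abcb11 3 and 4, Abcb5 3 and 4, Abca16 1 and 3, Abca12 1 and 2, and Abcg3 2 and 2. Abcc12 had the highest of them, 4.67 and 6.01, in a peak between genes upstream of its 5' end, and Abca12 followed with 2.65 and 4.09 in an intron. The highest peaks of Abca16, with 0.231 and 0.611, and of Abcb11, with 0.359 and 0.517, were at different places in the libraries. At Abcg5 the highest peak, with 1.34 and 1.89, lay inside the gene.

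The highest peaks of Abcc12, Abca12, Abcb5 and Abcg3 are shown because each holds the CTCF core in both libraries. They lie at chr8:86585201-86585380, chr1:71289641-71289780, chr12:118930661-118930840 and chr5:104986821-104986980, all on the minus strand, which is that of each gene, with capitals as above.
Abcc12 locus: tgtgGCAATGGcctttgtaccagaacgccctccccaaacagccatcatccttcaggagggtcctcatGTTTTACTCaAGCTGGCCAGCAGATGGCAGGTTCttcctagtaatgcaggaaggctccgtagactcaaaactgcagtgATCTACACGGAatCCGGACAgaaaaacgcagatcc
Abca12 locus: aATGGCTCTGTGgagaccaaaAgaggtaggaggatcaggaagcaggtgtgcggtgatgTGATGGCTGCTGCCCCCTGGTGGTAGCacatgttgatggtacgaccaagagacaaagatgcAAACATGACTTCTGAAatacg
Abcb5 locus: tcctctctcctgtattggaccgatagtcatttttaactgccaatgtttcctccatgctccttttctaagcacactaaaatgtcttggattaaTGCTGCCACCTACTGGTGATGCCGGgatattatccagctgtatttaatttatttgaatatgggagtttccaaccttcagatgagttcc
Abcg3 locus: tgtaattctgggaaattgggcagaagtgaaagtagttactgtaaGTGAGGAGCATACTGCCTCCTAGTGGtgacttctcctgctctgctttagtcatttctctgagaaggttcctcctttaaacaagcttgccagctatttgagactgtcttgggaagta
The core begins at base 84 in the Abcc12 sequence, 70 in that of Abca12, 97 in that of Abcb5 and 59 in that of Abcg3, on the minus strand of the printed sequence in the last 3. In each of them 12 of 12 bases lay in footprints of both libraries. The peaks of Abcb5 (1.85 and 3.08) and Abcg3 (0.752 and 1.94) were lower than those of the other 2 loci. For 4 of the 7 members without a promoter peak the highest locus peak held the core in both libraries, and for Abca16, Abcb11 and Abcg5 it did not. Over all genes without a promoter peak in either library, it did for 590 of the 3206 with a locus peak in both (18.4%). The 4 loci were singled out after their sequences had been seen, and the difference was not tested.

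The core was not more frequent at the family than elsewhere. It was searched after the sequences had been seen, in the 122 distal peaks of member loci that both libraries share, and 16 of them (13.1%) held it, against 13.3% of 79968 such peaks in the genome. Among the upper 10% by height it was 5 of 16 (31.3%) against 31.4%, and among the lower 50% it was 4 of 63 (6.35%) against 7.52%. Of the 16 matches, 15 overlapped a footprint of both libraries, against 81.4% of all matches. Besides the loci of Abca4, Abcc12, Abca12 and Abcb5, the matches lay at Abcb9, Abca1, Abca5, Abca13, Abca17, Abcc8, Abcc9, Abcd3 and Abcg1. The exception without a footprint was that of Abca17. The Abcg3 peak lay within 1 kb of a TSS, so it was not distal and is not among the 16. Whether CTCF was bound was not measured. None of the 45 promoter windows held the core, against 2.54% of all promoters.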

How the data were processed

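Kidney DNase-seq libraries of 2 mice were analysed as 1 group. Per the labels, the authors deposited peak lists, footprint lists and false discovery rates for each library on mm10. The aligner, the callers, their versions and any allowance for CAST/EiJ variants were not given in the sources used here. In the peak lists, the deposited signal of a peak (column 7) is its height, and the deposited false discovery rates (q-values) are listed only below 0.05, with 0.01 in every row of the footprint lists. The longer of the 2 peak lists of a library was used, and the shorter, stricter one served as an alternative. The authors made all these lists per library, per the file descriptions.

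Gene models were GENCODE M21 basic, without genes of the mitochondrial genome, and sequence came from GRCm38.p6. Peaks and footprints were assigned by an overlap of at least 1 bp to 500 bp on either side of each TSS and to loci with 10 kb flanks, distal meaning a midpoint more than 1 kb from every TSS. Both strands were scanned for motifs in 300 bp at each 5' end and in whole shared distal peaks (CTCF core, added after the sequences were seen). Counts of members are set beside the same count over all protein-coding genes, and no test was run, since there is 1 group. The functions were tested on simulated data. Python 3.11.15, NumPy 2.4.6, SciPy 1.17.1, pysam 0.24.0 and Matplotlib 3.10.9 were used.

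The members, gene lists and motifs were chosen with earlier results of these data known. All but 2 members are named, since these 2 and 1 list gene are not reported here; heights are given in full for at least the 3 highest of each subfamily, members with a promoter peak in 1 library only and the 5 densest loci, together with the 5 highest shared distal peaks and the 2 highest and the closed genes of each list. Roles and their groupings are textbook background, and the groupings by role were made after values were seen. Depth is unknown, so precision rests on the 2 libraries. The alternatives were other promoter windows, TSS sets, flanks, peak lists, height thresholds and overlaps, and each library alone.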

Additional observations from a re-analysis of the deposited data

How the results depend on the processing

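No paired analysis was possible because the 2 libraries form a single group. Of the 45 members, between 30 (upper 50% of peaks by height) and 39 (comprehensive annotation) had a promoter peak in both libraries, and 37 or 38 in each library alone. The counts for ABCA, ABCB, ABCC, ABCD, ABCE and ABCF stayed within 1.5 times their value under every alternative run, as did the members with a footprint at a TSS (33 to 37). The ABCG count fell from 3 to 1 with the stricter peak list and to 1 with the upper 50% of peaks, and rose to 4 with the comprehensive annotation. The low-CpG count, whose alternatives were chosen after seeing the data, fell from 16 to 10 and to 9 and rose to 17 under the same settings. Among single promoter heights, those of Abca13 (0.537), Abca15 (0.558), Abca9 (0.451) and Abcb8 (8.00) moved with a 250 bp promoter, that of Abcb8 at the 5' end alone (4.79), that of Abca17 with 1000 bp (12.4) and that of Abca4 with the comprehensive annotation (14.8).

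Peak density of the member loci was 0.707 times that of all genes and 0.884 times with 50 kb flanks, below 1 under each alternative. ABCA (0.609) came to 0.517 with the stricter list, 0.488 with no flank and 0.471 with the upper 50% of peaks, and to 0.657 and 0.591 in single libraries, replicate 1 first. ABCB (0.825) came to 0.703 with the stricter list, 0.946 with no flank and 0.565 with distal peaks only, and to 0.852 and 0.744 in single libraries. ABCC (0.592) came to 0.830 with 50 kb flanks and 1.01 with distal peaks only, and ABCD (0.940) to 1.18 with no flank. ABCE (0.408) came to 0.580 with the stricter list, 0.679 with 50 kb flanks and 0 with distal peaks only. ABCF (0.766) came to 1.58 with no flank, 2.29 with 50 kb flanks, 0 with distal peaks only and 1.18 with the upper 50% of peaks, and to 1.10 and 0.531 in single libraries. ABCG (1.53) came to 1.24 with no flank, 1.11 with 50 kb flanks and 1.75 with distal peaks only, and to 1.07 and 1.33 in single libraries. Footprint density (0.670) came to 0.656 with no flank, 0.910 with 50 kb flanks and 0.692 inside peaks only, and to 0.651 and 0.643 in single libraries. The share of replicate 1 locus peaks found in replicate 2 was 95.2% with the stricter list and 81.5% with a reciprocal overlap of 50%. The causes of these shifts were not tested.

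Without a stated depth, a missing peak means only that none was listed; it does not show closed chromatin in every kidney cell type. Subfamilies of 1 to 5 genes give medians that rest on single genes, and neighbouring members share peaks.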
